A study of Homo sapiens with 6 samples.

Results

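Aldo-keto reductases of the AKR1 subfamily and aldehyde dehydrogenases are the enzymes described here, in U87 cells depleted of the long noncoding RNA LINC00152. The set holds 10 genes, AKR1A1, AKR1B1, AKR1B10, AKR1C1, AKR1C2, AKR1C3, ALDH1A1, ALDH1A3, ALDH2 and ALDH3A2, of 27192 genes listed in the count tables. It was chosen by name around the rise of AKR1B10 after LINC00152 knockdown in these libraries, so the values of these genes between the groups are a description and carry no test. U87 is an established human glioblastoma cell line. In the siLINC00152 group, cells received a combination of 2 siRNAs against LINC00152; in the siGL2 group they received siGL2, given in the labels as a nonspecific control. Both groups were transfected 2 times, 24 hours apart, with Lipofectamine RNAiMAX, and cells were harvested 24 hours after the second round. Each group has 3 libraries, named A, B and C, all from this 1 cell line.

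Both families act on the reactive carbonyl group of aldehydes and ketones, from opposite sides. Aldo-keto reductases use NADPH to reduce carbonyls to alcohols, and aldehyde dehydrogenases use NAD+ or NADP+ to oxidize aldehydes to carboxylic acids. Their substrates include sugars, retinal, steroids, prostaglandins and the aldehydes left by lipid peroxidation. In glioblastoma, ALDH1A3 is known as a marker of tumour cells of the mesenchymal type.

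Total counts per library were 41963120, 42999222 and 43713662 in siLINC00152 libraries A, B and C, and 42474451, 42139419 and 46234763 in siGL2 libraries A, B and C. LINC00152 had 114, 112 and 109 counts in the siLINC00152 libraries against 650, 608 and 776 counts in the siGL2 libraries, and the groups did not overlap. Of the read-length (75-base) stretches of its transcripts, 20.7% also occur in other genes, mainly in MIR4435-2HG (13.1%). Levels are given as CPM, counts scaled to library size after TMM (a factor that balances library composition), with SD over n = 3 libraries. Fold changes are siLINC00152 over siGL2 on the log2 scale, with the standard error (SE) of the fit across all genes. Of 27192 genes, 14078 had enough counts to be tested, and 64.3% of them passed an adjusted p under 0.05 (edgeR), in either direction. The labels do not state if replicates were separate cultures, so the p-values reflect the spread over these samples alone, which may be technical. Among markers of mesenchymal glioma, TNC (log2 fold change 0.98) and FN1 (0.16) were higher, and CHI3L1 (−0.61), VIM (−0.39) and CD44 (−0.31) were lower. FN1 overlapped between groups, with siGL2 library A (5859 CPM) above siLINC00152 libraries A (5637 CPM) and B (5718 CPM). The 6 astrocyte markers summed to between 1.22 and 1.93 CPM in the siLINC00152 libraries and between 1.37 and 1.44 CPM in the siGL2 libraries, with AQP4 and GJB6 at 0 in every library. The 6 neuron markers summed to between 72.7 and 76.6 CPM in the siLINC00152 libraries and between 93.3 and 97.6 CPM in the siGL2 libraries. Nearly all of this was SNAP25, GAD1 and SYT1, with means of 42.8, 20.5 and 11.3 CPM in siLINC00152 libraries. In siGL2 libraries their means were 63.7, 19.5 and 12.8 CPM. Of these genes SNAP25 alone passed the threshold, and GAD1 was not lower. The microglia markers summed to between 12.9 and 14.0 CPM in the siLINC00152 libraries and between 22.3 and 23.1 CPM in the siGL2 libraries, nearly all of it CSF1R, with AIF1 and TYROBP at 0. The endothelium markers summed to between 3.83 and 4.19 CPM in the siLINC00152 libraries and between 8.68 and 9.60 CPM in the siGL2 libraries. Among them KDR (log2 fold change −2.13), PECAM1 (−0.88) and TEK (−0.82) were lower, and VWF (1.10) was higher. Oligodendrocyte and liver markers each summed to at most 1.27 CPM in any library, with MOG, SOX10, MAG, TTR and CYP3A4 at 0. The part of these marker levels in the results was not tested.

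Of the 9 listed enzymes with enough counts to be tested, 2 were higher, 4 were lower and 3 did not pass the threshold of the fit across all genes (edgeR), beside 32.2% of all tested genes higher and 32.2% lower. The 2 higher genes, AKR1B10 and AKR1B1, are both aldose reductase-type enzymes. The 4 lower genes were AKR1C2, ALDH1A3, ALDH2 and ALDH3A2, and all 3 tested aldehyde dehydrogenases of the set were among them. ALDH1A1 was not tested. The median log2 fold change of the 9 genes was −0.12, beside −0.0011 for all tested genes. In 7 of the 9 genes the siLINC00152 and siGL2 libraries did not overlap, beside 67.7% of all tested genes. Since the set was built around AKR1B10, these counts only describe the set. In bulk RNA, fewer cells that express a gene and less of its RNA per cell cannot be told apart.

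**Figure D1:**
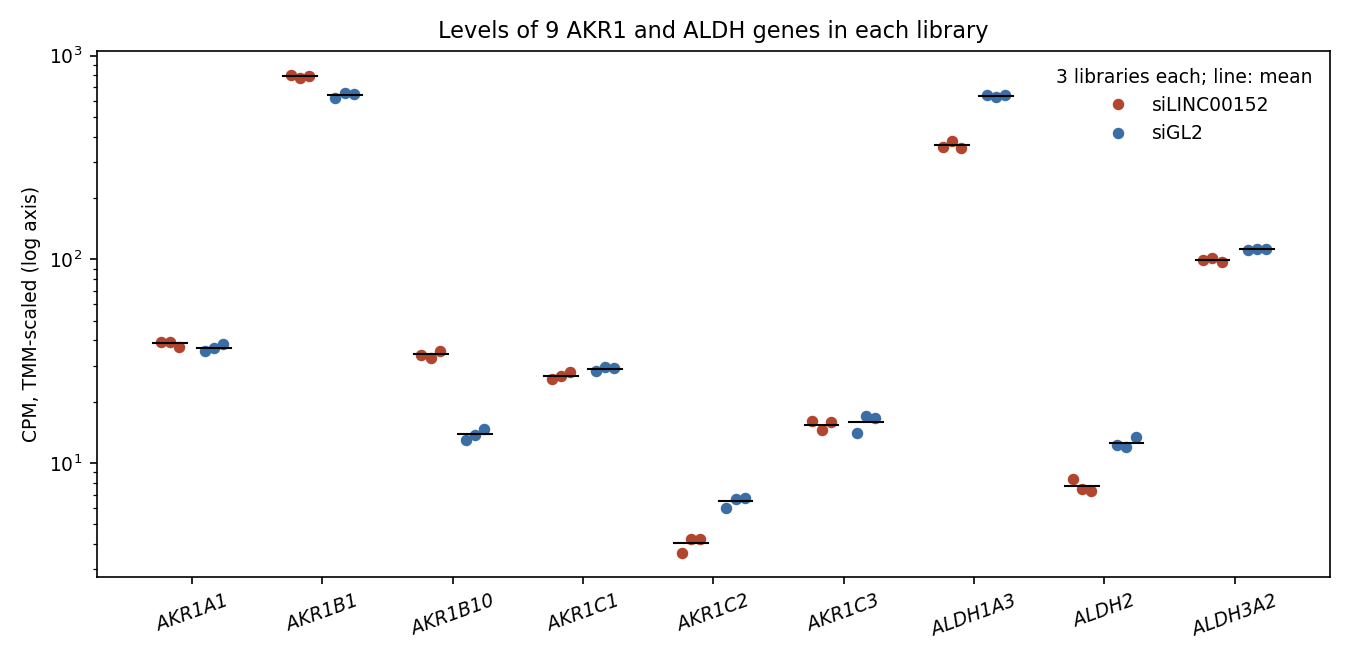
TMM-scaled CPM (log axis) of 9 listed enzymes in each library, with siLINC00152 points to the left of siGL2 points and a line at each mean of 3 libraries. AKR1B10 stands near 34.1 CPM in siLINC00152 and 13.8 CPM in siGL2 libraries, ALDH1A3 near 363 CPM in siLINC00152 and 636 CPM in siGL2 libraries, and the groups of AKR1A1 and AKR1C3 overlap.

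The AKR1B genes lie together on chromosome 7 (GRCh38, GENCODE 29): AKR1B1 from 134442350 to 134459284 on the minus strand, AKR1B10 from 134527592 to 134541408 and AKR1B15 from 134549136 to 134579875 on the plus strand. AKR1B15 is the closest relative of AKR1B10, with 93.5% of coding bases identical (62 of 948 differ), and AKR1B1 shares 77.1% with AKR1B10. Because reads of 75 bases must tell these copies apart, the last 75 coding bases before the stop codon (GENCODE 29 transcripts, 5′ to 3′) are shown, with capitals at the bases that differ from AKR1B10, 11 in AKR1B15 and 27 in AKR1B1.
AKR1B10: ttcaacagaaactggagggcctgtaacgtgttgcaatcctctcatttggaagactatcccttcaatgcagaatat
AKR1B15: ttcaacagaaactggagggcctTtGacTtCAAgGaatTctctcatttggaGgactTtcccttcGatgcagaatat
AKR1B1: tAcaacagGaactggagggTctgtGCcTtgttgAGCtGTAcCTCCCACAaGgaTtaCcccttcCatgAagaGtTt
Over whole transcripts, 6.07% of the 75-base stretches of AKR1B10 are found elsewhere too, mainly in AKR1B15 (3.87%), and 2.21% of those of AKR1B15 occur in AKR1B10. None of the coding 75-base stretches of AKR1B10 (0%) occurs in AKR1B1. These shares count single stretches, while the libraries were read from both ends, and the second read of a pair was not considered. The handling of reads with several matches is not known here.

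AKR1B10, a reductase of retinal and lipid-derived aldehydes known mainly from the intestine and from liver and lung tumours, had the largest log2 fold change of the listed enzymes. Its counts were 1393, 1380 and 1515 in the siLINC00152 libraries and 565, 593 and 693 in the siGL2 libraries. Every siLINC00152 library lay above every siGL2 library. As CPM this was 33.9, 32.8 and 35.6 in siLINC00152 libraries A, B and C, against 13.02, 13.7 and 14.7 in siGL2 libraries A, B and C. It averaged 34.1 ± 1.38 CPM in siLINC00152 and 13.8 ± 0.818 CPM in siGL2 libraries, a 2.47-fold higher level and a log2 fold change of 1.30 ± 0.06 (SE). Of all tested genes, 1.58% had a larger log2 fold change than AKR1B10. With the counts of AKR1B10 and AKR1B15 added together, which does not depend on the split between them, the log2 fold change was 1.36 ± 0.06, at 38.0 ± 2.12 CPM in siLINC00152 and 14.8 ± 0.893 CPM in siGL2 libraries.

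AKR1B1, aldose reductase, which turns glucose into sorbitol in the first step of the polyol pathway, had the highest level per exonic length of the set in both groups. By CPM, ALDH1A3 stood above it in siGL2 library A. Its counts were 33092, 32692 and 33974 in the siLINC00152 libraries and 26730, 28422 and 30542 in the siGL2 libraries. The groups did not overlap. It averaged 794 ± 14.3 CPM in siLINC00152 and 640 ± 21.5 CPM in siGL2 libraries, with a log2 fold change of 0.31 ± 0.04 (1.24-fold). Although its fold change was smaller than that of AKR1B10, its CPM difference of 154 was larger than the AKR1B10 difference of 20.3.

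Levels of different genes were compared per kilobase of exonic length (RPKM from TMM-scaled CPM, exons merged over the GENCODE 29 transcripts tagged basic). AKR1B10 amounted to 3.73%, 3.74% and 3.95% of the AKR1B1 level in siLINC00152 libraries A, B and C, and to 1.87%, 1.85% and 2.01% in siGL2 libraries A, B and C. AKR1B1 was the main aldo-keto reductase transcript per length, at 84.8 ± 0.0257% of the summed RPKM of 14 AKR genes in siLINC00152 and 83.5 ± 0.233% in siGL2 libraries. AKR1B10 made up 3.23 ± 0.106% of that sum in siLINC00152 and 1.596 ± 0.0769% in siGL2 libraries. The sum itself was 664 ± 12.1 RPKM in siLINC00152 and 544 ± 17.5 RPKM in siGL2 libraries.

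AKR1A1, aldehyde reductase, lies on chromosome 1 between 45550543 and 45570049 (plus strand). It had 39.2, 39.3 and 37.3 CPM in siLINC00152 libraries A, B and C, and 35.4, 36.6 and 38.4 CPM in siGL2 libraries A, B and C. The groups overlapped. Its log2 fold change of 0.07 ± 0.05 did not pass the threshold, and its 95% confidence interval ran between −0.04 and 0.18.

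The AKR1C enzymes reduce ketosteroids and prostaglandins: AKR1C1 inactivates progesterone, AKR1C2 inactivates dihydrotestosterone, and AKR1C3 makes testosterone and prostaglandin F. Their genes lie together on chromosome 10, AKR1C1 from 4963253 to 4983283 and AKR1C3 from 5035354 to 5107686 on the plus strand, and AKR1C2 from 4987400 to 5018031 on the minus strand. AKR1C1 and AKR1C2 are near-identical copies, with 98.0% of coding bases identical (19 of 969 differ), and AKR1C3 shares 91.4% with AKR1C1 and 91.0% with AKR1C2. The last 75 coding bases show what this means for counting: AKR1C1 and AKR1C2 are the same there, and AKR1C3 differs at 14 bases, given in capitals.
AKR1C1: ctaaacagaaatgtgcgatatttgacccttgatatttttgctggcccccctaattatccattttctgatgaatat
AKR1C2: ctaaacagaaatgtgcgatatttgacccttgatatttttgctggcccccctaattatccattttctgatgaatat
AKR1C3: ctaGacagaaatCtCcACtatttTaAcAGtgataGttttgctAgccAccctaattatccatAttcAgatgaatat
Of the 75-base stretches of their transcripts, 21.9% for AKR1C1, 30.1% for AKR1C2 and 2.87% for AKR1C3 also occur in other genes, for the first 2 almost all in each other. The split of counts between AKR1C1 and AKR1C2 is therefore uncertain, though these shares too count single stretches and not read pairs.

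AKR1C2 had 149, 177 and 181 counts in the siLINC00152 libraries and 262, 288 and 319 counts in the siGL2 libraries, with no overlap. It averaged 4.03 ± 0.349 CPM in siLINC00152 and 6.48 ± 0.387 CPM in siGL2 libraries, a log2 fold change of −0.69 ± 0.10 (lower, 1.61-fold). AKR1C1 had 25.8, 26.7 and 27.9 CPM in siLINC00152 libraries A, B and C, and 28.3, 29.7 and 29.1 CPM in siGL2 libraries A, B and C. These groups did not overlap, but the log2 fold change of −0.12 ± 0.05 (95% confidence interval between −0.23 and −0.0025) did not pass the threshold. AKR1C1 passed at −0.13 without siGL2 replicate A and at −0.18 when library size alone set the scale. AKR1C3 overlapped between groups, with 16.0, 14.4 and 15.8 CPM in siLINC00152 libraries A, B and C and 14.0, 16.99 and 16.6 CPM in siGL2 libraries A, B and C. Its log2 fold change was −0.04 ± 0.07, with an interval between −0.20 and 0.12, and its sign turned without siLINC00152 replicate B (0.0062) and without siGL2 replicate B (0.0078). With the 3 copies added together, the log2 fold change was −0.15 ± 0.05 and passed the threshold, at 46.2 ± 1.51 CPM in siLINC00152 and 51.4 ± 2.68 CPM in siGL2 libraries.

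ALDH1A1 and ALDH1A3 oxidize retinal to retinoic acid, the ligand of the retinoic acid receptors. In these libraries ALDH1A3 was abundant and ALDH1A1 was nearly undetected. ALDH1A1, on chromosome 9 between 72900662 and 73080442 (minus strand), had 0 counts in each siLINC00152 library and 1, 1 and 0 counts in the siGL2 libraries. With a count of 0 allowing up to 3 counts, or between 0.0634 and 0.0730 CPM over the 6 libraries (counting error only), no difference was detectable at this depth.

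ALDH1A3, on chromosome 15 between 100877714 and 100916626 (plus strand), had 14553, 16058 and 15003 counts in the siLINC00152 libraries and 27723, 26965 and 30445 counts in the siGL2 libraries. Every siLINC00152 library lay below every siGL2 library. As CPM it had 354, 382 and 352 in siLINC00152 libraries A, B and C, against 639, 624 and 644 in siGL2 libraries A, B and C. It averaged 363 ± 16.7 CPM in siLINC00152 and 636 ± 10.2 CPM in siGL2 libraries, so that 57.1% of the siGL2 level remained, with a log2 fold change of −0.81 ± 0.04. This was the largest fall of the listed enzymes, both as a log2 fold change and as a CPM difference (−273). Of the exonic bases of ALDH1A3, 27.5% overlap AC015712.2 on the opposite strand, and whether counting used strand is not known here.

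ALDH2, the mitochondrial enzyme that clears acetaldehyde, lies on chromosome 12 between 111766887 and 111817529 (plus strand). It had 343, 314 and 312 counts in the siLINC00152 libraries and 529, 515 and 635 counts in the siGL2 libraries, with no overlap. It averaged 7.72 ± 0.555 CPM in siLINC00152 and 12.5 ± 0.802 CPM in siGL2 libraries, a log2 fold change of −0.70 ± 0.08 (lower, 1.62-fold). ALDH3A2, the fatty aldehyde dehydrogenase of the endoplasmic reticulum, lies on chromosome 17 between 19648136 and 19677598 (plus strand). It had 99.1, 101 and 97.5 CPM in siLINC00152 libraries A, B and C, and 110, 113 and 112.5 CPM in siGL2 libraries A, B and C. Its groups did not overlap, but the difference was small: 88.7% of the siGL2 level remained, with a log2 fold change of −0.17 ± 0.04.

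Per exonic length, the order of the levels in siLINC00152 libraries was AKR1B1 (563 ± 10.1 RPKM), ALDH1A3 (66.9 ± 3.07 RPKM), ALDH3A2 (24.0 ± 0.460 RPKM), AKR1B10 (21.5 ± 0.866 RPKM), AKR1A1 (16.2 ± 0.477 RPKM), AKR1C3 (6.92 ± 0.385 RPKM), AKR1C1 (3.78 ± 0.151 RPKM), AKR1C2 (0.936 ± 0.0810 RPKM) and ALDH2 (0.804 ± 0.0578 RPKM). In siGL2 libraries it was AKR1B1 (454 ± 15.3 RPKM), ALDH1A3 (117 ± 1.87 RPKM), ALDH3A2 (27.1 ± 0.311 RPKM), AKR1A1 (15.4 ± 0.646 RPKM), AKR1B10 (8.68 ± 0.514 RPKM), AKR1C3 (7.11 ± 0.731 RPKM), AKR1C1 (4.10 ± 0.0979 RPKM), AKR1C2 (1.51 ± 0.0899 RPKM) and ALDH2 (1.30 ± 0.0835 RPKM). AKR1B10 thus stood above AKR1A1 in siLINC00152 and below it in siGL2 libraries. AKR1C2 and ALDH2 overlapped over the siLINC00152 libraries, so their order there was within the spread. The order among AKR1A1, AKR1B10, AKR1C1 and AKR1C3, and that of ALDH2 and AKR1C2, depended on the length used. By coding length in siLINC00152 libraries, AKR1A1 (39.6 RPKM) stood above AKR1B10 (36.0 RPKM) and ALDH2 (4.98 RPKM) above AKR1C2 (4.16 RPKM). By coding length in siGL2 libraries, AKR1C1 (30.0 RPKM) and AKR1C3 (16.4 RPKM) stood above AKR1B10 (14.6 RPKM).

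Among 19 aldehyde dehydrogenase genes, ALDH1A3 held 32.8%, 34.8% and 33.1% of the summed RPKM in siLINC00152 libraries A, B and C, and 49.8%, 49.5% and 49.9% in siGL2 libraries A, B and C. The sum was 199 ± 3.27 RPKM in siLINC00152 and 235 ± 2.66 RPKM in siGL2 libraries. By coding length the ALDH1A3 share was 47.8 ± 1.16% in siLINC00152 and 63.0 ± 0.210% in siGL2 libraries.

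**Figure D2:**
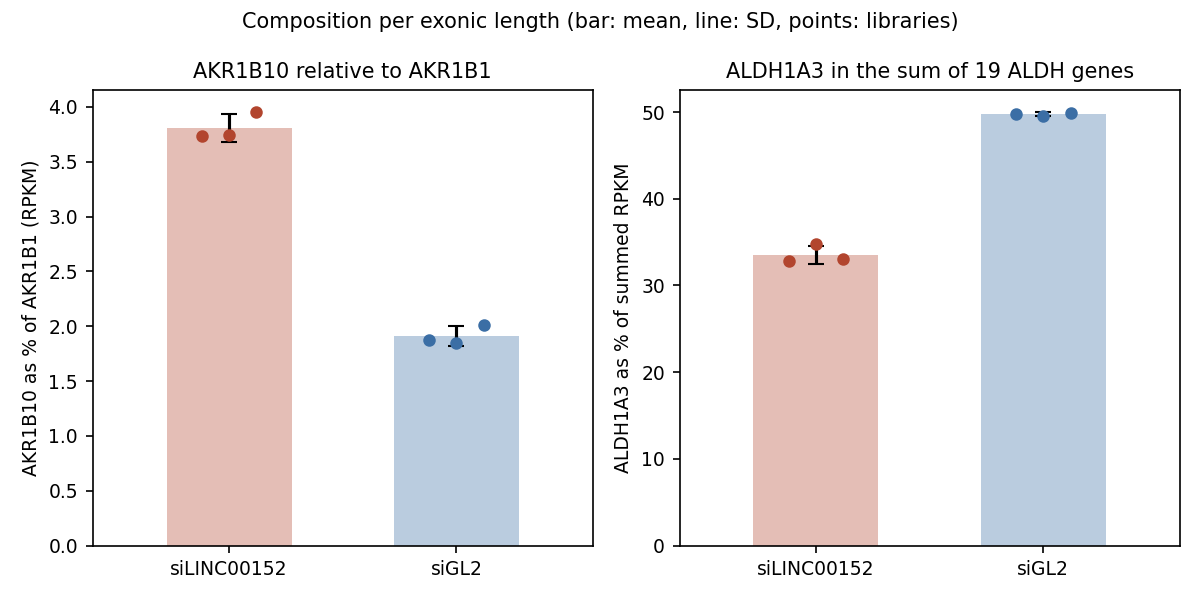
Left, AKR1B10 as a percentage of AKR1B1; right, ALDH1A3 as a percentage of the summed RPKM of 19 aldehyde dehydrogenase genes, with bars at the mean of 3 libraries, lines for SD and points for libraries. AKR1B10 averages 3.81% of AKR1B1 in siLINC00152 and 1.91% in siGL2 libraries, and ALDH1A3 averages 33.5% in siLINC00152 and 49.7% in siGL2 libraries.

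The rest of each family was read from lists of 11 other aldo-keto reductases and 15 other aldehyde dehydrogenases, which were also chosen with earlier results of these data known. Of the other reductases 7 were tested, 1 was higher, 4 were lower and 2 did not pass (edgeR), with a median log2 fold change of −0.39. Beside this and the lists that follow, all tested genes had a median of −0.0011, with 32.2% higher and 32.2% lower. The higher gene of this list was AKR1B15, a steroid reductase whose gene neighbours AKR1B10. It had 150, 139 and 202 counts in the siLINC00152 libraries and 45, 40 and 55 counts in the siGL2 libraries, with no overlap. It averaged 3.90 ± 0.749 CPM in siLINC00152 and 1.04 ± 0.119 CPM in siGL2 libraries, log2 fold change 1.90 ± 0.16 (adjusted p = 1.97e-09, edgeR).

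The lower reductase-family genes were 2 potassium channel β subunits, KCNAB2 (log2 fold change −0.67 ± 0.11, edgeR adjusted p = 2.33e-05) and KCNAB3 (−0.39 ± 0.17, adjusted p = 0.0495), and 2 aflatoxin aldehyde reductase genes, AKR7L (−0.54 ± 0.18, adjusted p = 0.0123) and AKR7A3 (−0.67 ± 0.25, adjusted p = 0.0254). AKR7A3 and AKR7L share reads: 15.9% and 10.1% of their 75-base stretches occur in other genes of the AKR7 group. KCNAB3, AKR7L and AKR7A3 had means of at most 1.54 CPM in siLINC00152 and 2.02 CPM in siGL2 libraries. The count of 4 lower genes was 2 without siLINC00152 replicate B, without siLINC00152 replicate C, without siGL2 replicate A, or with DESeq2. KCNAB3 lost its call at a log2 fold change of −0.27 without siLINC00152 replicate B and −0.23 without siGL2 replicate A. AKR7A2 had a log2 fold change of −0.08 ± 0.05 and KCNAB1 of 0.17 ± 0.22, and neither passed. AKR1C4, a liver enzyme, had 0 counts in all 6 libraries.

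Of the other aldehyde dehydrogenases 9 were tested, 2 were higher, 3 were lower and 4 did not pass (edgeR), with a median log2 fold change of 0.07. Of all tested genes, 32.2% were higher and 32.2% lower. ALDH6A1, the mitochondrial methylmalonate semialdehyde dehydrogenase of valine breakdown, fell to 6.65 ± 0.408 CPM in siLINC00152, against 17.1 ± 1.29 CPM in siGL2 libraries, log2 fold change −1.36 ± 0.08 (adjusted p = 4.63e-12, edgeR). Of its exonic bases, 10.03% overlap BBOF1 on the opposite strand. ALDH7A1, which acts in lysine breakdown, fell by 0.79 on the log2 scale (SE 0.11, edgeR adjusted p = 1.79e-06). ALDH16A1 fell by 0.29 on the log2 scale (SE 0.08, edgeR adjusted p = 0.0046).

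ALDH3B1, which oxidizes lipid-derived aldehydes at membranes, rose to 85.3 ± 3.14 CPM in siLINC00152, against 58.4 ± 1.03 CPM in siGL2 libraries, log2 fold change 0.55 ± 0.05 (adjusted p = 2.82e-09, edgeR). Its share of the summed RPKM of the 19 genes was 14.6 ± 0.705% in siLINC00152 and 8.46 ± 0.0921% in siGL2 libraries. ALDH18A1, which makes the precursor of proline, rose to 152 ± 2.39 CPM in siLINC00152, against 117 ± 1.76 CPM in siGL2 libraries, log2 fold change 0.38 ± 0.04 (adjusted p = 1.66e-07, edgeR). The 4 that did not pass were ALDH1B1 (−0.08 ± 0.06), ALDH1L2 (0.07 ± 0.08), ALDH9A1 (0.10 ± 0.05) and ALDH4A1 (0.10 ± 0.09). Of the 75-base stretches of ALDH4A1, 35.8% also occur in AL080251.1.

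**Figure D3:**
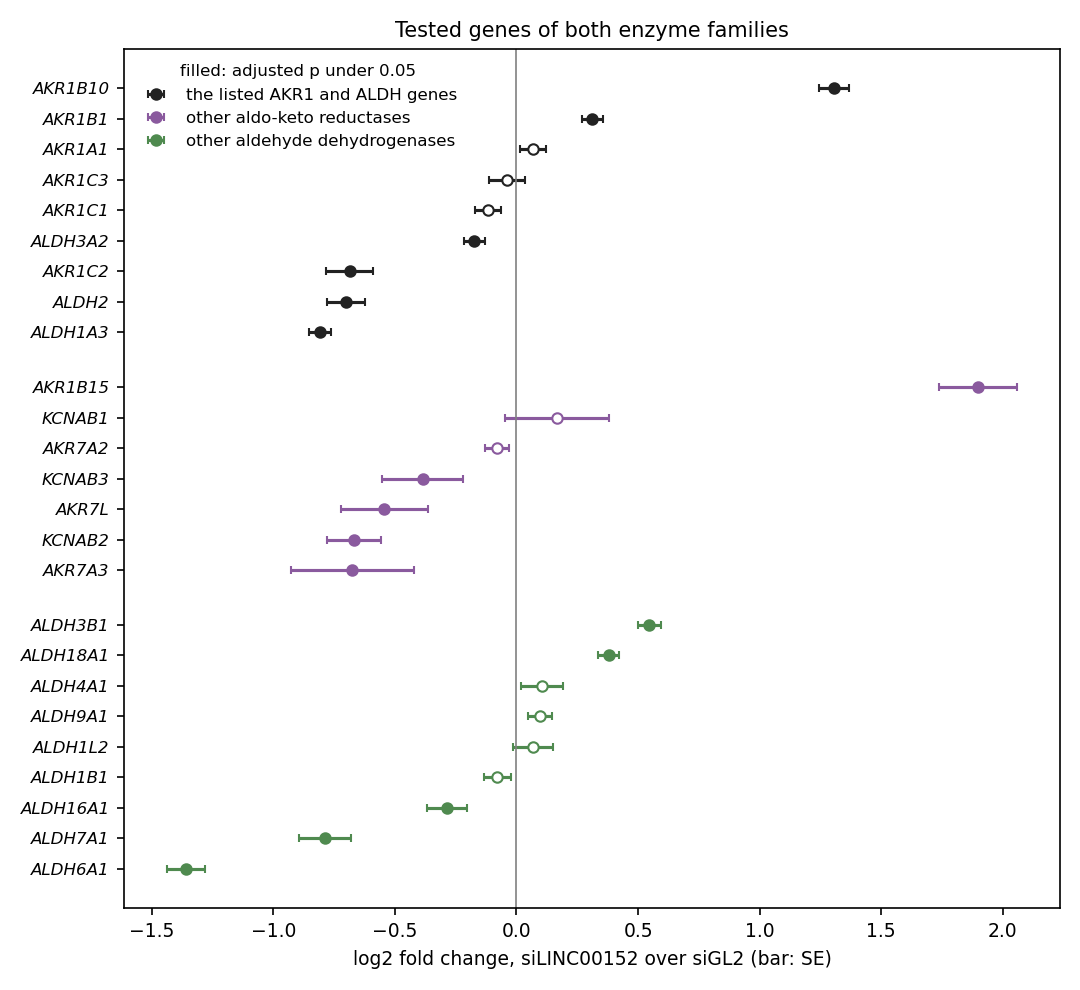
Log2 fold change (siLINC00152 over siGL2, bars are SE) of the 9 tested listed enzymes, 7 other aldo-keto reductases and 9 other aldehyde dehydrogenases, with filled points for an edgeR adjusted p under 0.05. The 3 AKR1B genes lie at 0.31, 1.30 and 1.90, and the aldehyde dehydrogenases run between −1.36 and 0.55.

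ALDH1A3 and the retinal reductase AKR1B10 act on the same metabolite from opposite sides, so the genes of the retinoid pathway were read beside them. Of 25 listed genes 17 were tested, 4 were higher, 7 were lower and 6 did not pass (edgeR), with a median log2 fold change of −0.11. Over all tested genes the shares were 32.2% higher and 32.2% lower. Retinal is reduced to retinol by DHRS3, which had 23.5, 24.2 and 24.0 CPM in siLINC00152 libraries A, B and C, and 45.7, 49.2 and 49.5 CPM in siGL2 libraries A, B and C. The groups did not overlap, and the log2 fold change was −1.01 ± 0.05 (adjusted p = 1.37e-12, edgeR). CYP26B1, which breaks down retinoic acid, had 51.7, 45.8 and 48.1 CPM in siLINC00152 libraries A, B and C, and 26.4, 25.2 and 24.5 CPM in siGL2 libraries A, B and C. It rose by 0.94 ± 0.06 on the log2 scale (edgeR adjusted p = 1.13e-11).

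The receptor RARB fell to 4.56 ± 0.381 CPM in siLINC00152, against 11.1 ± 1.08 CPM in siGL2 libraries. Its log2 fold change was −1.28 ± 0.09 (adjusted p = 1.96e-10, edgeR). TGM2, a transglutaminase, had 78.3, 74.6 and 73.3 CPM in siLINC00152 libraries A, B and C, and 262, 249 and 258 CPM in siGL2 libraries A, B and C. Its log2 fold change was −1.77 ± 0.05 (adjusted p = 3.42e-17, edgeR). The remaining genes that passed were chosen for mention after their values were seen. RARG (−0.65), RXRA (−0.19), RDH5 (−0.26) and FABP5 (−0.84) were lower, and CRABP2 (0.74), RDH10 (0.21) and LRAT (3.06) were higher on the log2 scale. RDH5 shares 54.5% of its 75-base stretches with a read-through gene and FABP5 has 16.8% of its own in other genes, mainly pseudogenes. LRAT, which stores retinol as ester, rested on few reads, with 19, 22 and 32 counts in the siLINC00152 libraries and 4, 2 and 3 counts in the siGL2 libraries. RDH13, CYP26A1 and CYP26C1 were listed at 0 in all libraries. Retinoic acid was not measured, and a change in its output was not tested.

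**Figure D4:**
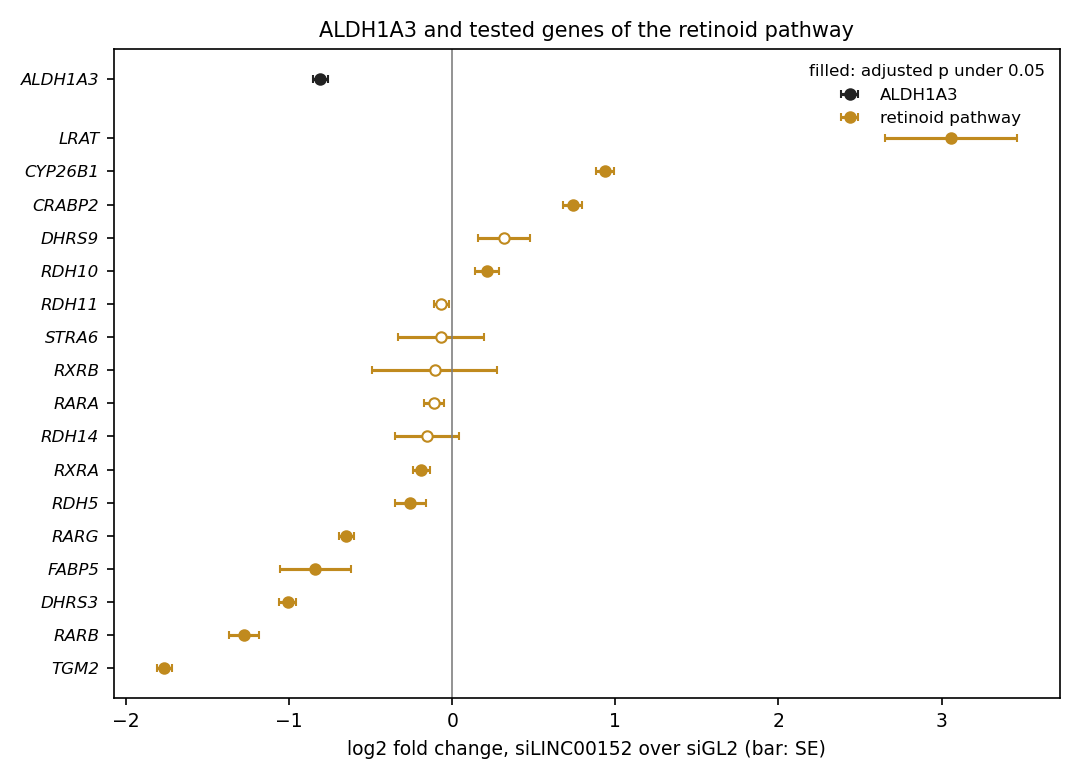
Log2 fold change (siLINC00152 over siGL2, bars are SE) of ALDH1A3 and of 17 tested retinoid pathway genes, with filled points for an edgeR adjusted p under 0.05. TGM2 at −1.77, RARB at −1.28 and DHRS3 at −1.01 are the lowest, and CYP26B1 at 0.94 and LRAT at 3.06 are the highest.

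Other enzymes that act on aldehydes, ketones or the sugar alcohols of the polyol pathway formed a list of 18 genes. Of these, 15 were tested, 2 were higher, 11 were lower and 2 did not pass (edgeR), with a median log2 fold change of −0.47. Among all tested genes, 32.2% were higher and 32.2% lower. SORD, sorbitol dehydrogenase, which follows AKR1B1 in the polyol pathway, had 24.8, 26.5 and 24.9 CPM in siLINC00152 libraries A, B and C, and 41.4, 40.0 and 41.1 CPM in siGL2 libraries A, B and C. It fell by 0.68 ± 0.05 on the log2 scale (edgeR adjusted p = 5.19e-10), and 25.0% of its 75-base stretches are shared, mainly with the pseudogene SORD2P. KHK, ketohexokinase, which takes up the fructose that SORD makes and was picked for mention after its value was seen, had log2 fold change −0.91 ± 0.11 (adjusted p = 5.03e-07, edgeR). Of its exonic bases, 23.8% overlap CGREF1 on the opposite strand.

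ADH5, the glutathione-dependent formaldehyde dehydrogenase, had 74.5, 81.7 and 76.4 CPM in siLINC00152 libraries A, B and C, and 168, 176 and 180 CPM in siGL2 libraries A, B and C. Its log2 fold change was −1.17 ± 0.05 (adjusted p = 3.31e-14, edgeR). PTGR1, which reduces prostaglandins and lipid alkenals, fell to 22.0 ± 0.659 CPM in siLINC00152, against 38.6 ± 2.18 CPM in siGL2 libraries, log2 fold change −0.81 ± 0.06 (adjusted p = 1.28e-10, edgeR). SGPL1, sphingosine-1-phosphate lyase, forms the fatty aldehyde that ALDH3A2 oxidizes. SGPL1 rose to 75.6 ± 2.53 CPM in siLINC00152, against 39.1 ± 1.48 CPM in siGL2 libraries, log2 fold change 0.95 ± 0.05 (adjusted p = 1.13e-12, edgeR). The other higher gene, GSTA4, lay just past the threshold (edgeR adjusted p = 0.0496), and the count of 2 higher genes was 1 without siLINC00152 replicate B, without siLINC00152 replicate C, without siGL2 replicate A, with DESeq2 or with library size alone.

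**Figure D5:**
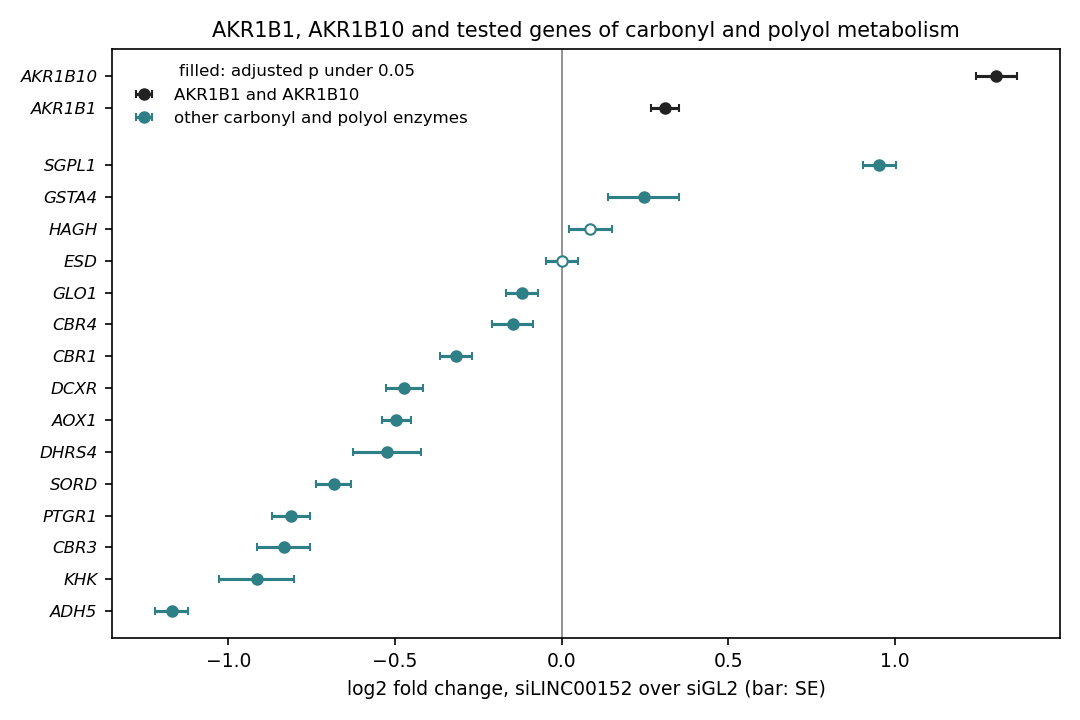
Log2 fold change (siLINC00152 over siGL2, bars are SE) of AKR1B10, AKR1B1 and 15 tested genes of carbonyl and polyol metabolism, with filled points for an edgeR adjusted p under 0.05. AKR1B10 at 1.30, SGPL1 at 0.95 and AKR1B1 at 0.31 lie above 0, and SORD at −0.68 and ADH5 at −1.17 lie below it.

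AKR1B10, AKR1C1 and other members of these families are known target genes of the transcription factor NRF2 (NFE2L2), which responds to oxidants and electrophiles. Of 30 listed regulators and targets of NRF2, 29 were tested, 8 were higher, 12 were lower and 9 did not pass (edgeR), with a median log2 fold change of −0.06. Of all tested genes, 64.3% passed, 32.2% higher and 32.2% lower. NFE2L2 itself had a log2 fold change of 0.09 ± 0.05 and did not pass (edgeR adjusted p = 0.111), and 12.8% of its 75-base stretches occur in other genes. KEAP1, which marks NRF2 for degradation, had log2 fold change −0.24 ± 0.05 (adjusted p = 2.71e-04, edgeR). Both were picked for mention after their values were seen. HMOX1, heme oxygenase, fell to 244 ± 11.0 CPM in siLINC00152, against 409 ± 16.6 CPM in siGL2 libraries, log2 fold change −0.75 ± 0.05 (adjusted p = 1.83e-11, edgeR).

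NQO1, a quinone reductase and a widely used NRF2 target, fell by 0.56 ± 0.05 on the log2 scale (edgeR adjusted p = 5.05e-09). The carbonyl reductase CBR3 fell by 0.83 ± 0.08 (edgeR adjusted p = 1.36e-08). MAFK, a small MAF protein that pairs with NRF2, rose by 0.83 ± 0.06 (edgeR adjusted p = 1.81e-10). The rest of the 8 higher genes were OSGIN1 (0.41), SLC7A11 (0.37), ABCC3 (0.32), GCLC (0.29), TXNRD1 (0.28), TKT (0.26) and TXN (0.18). The rest of the 12 lower genes were GCLM (−0.53), MAFF (−0.41), PGD (−0.39), CBR1 (−0.32), GSR (−0.31), TALDO1 (−0.30), EPHX1 (−0.15) and MAFG (−0.13). The rest in either direction were chosen for mention after their values were seen. Genes on the opposite strand overlap 17.7% of the exonic bases of NQO1, 42.2% of those of CBR3 and 18.1% of those of MAFK. The core TGACNNNGC of the NRF2 binding element was searched on both strands from 250 bases before to 50 bases after the start of each gene (RefSeq, GRCh38.p14). It was in 0 of the windows of the 8 listed enzymes that matched, which had 1 or 2 windows each. Of 35116 windows of all genes, 13.3% held it. So few windows cannot show a lack of the element, and bases farther from the start were not searched. AKR1B10 and ALDH2 were not matched.

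Prostaglandins and steroids are the substrates of the AKR1C enzymes and, for prostaglandin F synthesis, of AKR1B1. Of 28 listed genes 19 were tested, 7 were higher, 6 were lower and 6 did not pass (edgeR), with a median log2 fold change of −0.07. Over all tested genes, 64.3% passed, 32.2% higher and 32.2% lower. PTGES, prostaglandin E synthase, fell to 17.8 ± 0.772 CPM in siLINC00152, against 27.9 ± 0.616 CPM in siGL2 libraries, log2 fold change −0.65 ± 0.06 (adjusted p = 4.49e-09, edgeR). PTGER4, a prostaglandin E receptor, rose to 7.99 ± 0.0836 CPM in siLINC00152, against 4.90 ± 0.198 CPM in siGL2 libraries, log2 fold change 0.70 ± 0.08 (adjusted p = 2.89e-07, edgeR). SRD5A3, a steroid 5α-reductase family enzyme needed to make dolichol, rose by 0.49 ± 0.05 on the log2 scale (edgeR adjusted p = 1.04e-07). PTGR1, given above, is in this list too.

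The genes whose pattern over the 6 libraries was most like that of AKR1B10 were found by the root mean square distance of centred log2 CPM, among 9224 genes of at least 10 CPM. They were PXYLP1 at a distance of 0.051, LOC730101 at 0.053, RNF128 at 0.059 and NKIRAS2 at 0.059. Their log2 fold changes were 1.33 ± 0.07 for PXYLP1, 1.33 ± 0.05 for LOC730101, 1.28 ± 0.07 for RNF128 and 1.26 ± 0.05 for NKIRAS2. PXYLP1 averaged 18.1 ± 1.35 CPM in siLINC00152 and 7.17 ± 0.316 CPM in siGL2 libraries. PXYLP1 removes a phosphate from the linker sugar of proteoglycans, RNF128 is a ubiquitin ligase and NKIRAS2 is a Ras-like inhibitor of NF-kB signalling. The libraries share the group difference by which AKR1B10 was chosen, so a small distance includes a difference of like size.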

How the data were processed

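Directional libraries of polyA RNA from U87 cells were read from both ends at 75 bases, per the labels' protocols. The authors deposited raw whole-number counts by gene symbol, in 1 table for each of 6 libraries. Per the submitters' processing notes, the tools were bcl2fastq, HISAT, HTSeq and DESeq and the build hg38, with no versions or roles. Annotation, strand setting and handling of reads with several matches are not given here. The columns of 2 groups of 3 libraries were assigned from the sample titles.

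Everything else was computed here with edgeR 4.0.16 and DESeq2 1.42.0 in R 4.3.3 (limma 3.58.1), and with pandas 2.3.3, numpy 2.4.6 and matplotlib 3.10.9 in Python 3.11.15. The filter on low counts was filterByExpr (minimum count 10, minimum total 15), libraries were scaled by TMM, and groups were compared on the deposited counts with edgeR's robust quasi-likelihood test, two-sided, with Benjamini-Hochberg adjustment over all 14078 tested genes. The biological coefficient of variation was 4.47%. Within groups, a chi-square of counts per degree of freedom was between 2.91 and 13.7, so no pair of libraries agreed within sampling noise. The highest values were those of siGL2 library A, 10.9 against B and 13.7 against C, beside 2.91 for siGL2 B against C. Pairs of siLINC00152 libraries lay between 3.07 and 5.79. Depth and the limit that a count of 0 allows are given beside the results. Lengths, overlaps and 75-base stretches come from GENCODE release 29, matched by symbol for 138 of 139 genes looked up. Exonic lengths used the transcripts tagged basic, and overlaps and 75-base stretches used all transcripts. Scripts were tested on simulated counts.

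The listed enzymes and all gene lists were chosen with earlier results of these data known. The rule for named genes took all 10 enzymes, LINC00152, every tested gene of both other family lists, the 4 genes with the smallest p of each other list and the 4 genes most like AKR1B10; others are said to be chosen after their values were seen. CBR1, CBR3 and PTGR1 count in 2 lists each. A marker gene is not reported here. Alternatives were other scalings, no filter, DESeq2, a replicate block, leaving out each library and summed paralogs.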

Additional observations from a re-analysis of the deposited data

How the results depend on the processing

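Among the named genes refitted under the alternatives, none that was called changed direction; other genes were compared by counts only. The listed enzymes gave 2 higher and 4 lower calls in each setting except library size alone and without siGL2 replicate A, where AKR1C1 made 5 lower. Over all genes, 9055 were called with DESeq2 size factors in edgeR, 9144 with library size alone (3755 higher, 5389 lower), 9299 of 20410 without the filter, 8436 with DESeq2 and 9155 with the replicate block; leaving out 1 library gave between 8294 and 9336. The letters A, B and C were not taken to pair libraries, since the labels do not say that they do. The deviations of same-letter libraries correlated at 0.134, −0.0416 and 0.128, and those of libraries with different letters between −0.178 and 0.0709. The replicate block (4571 higher, 4584 lower) changed the call of 0 named genes. The 4 lower genes among other aldo-keto reductases became 2 with DESeq2, and ranged between 2 and 3 when 1 library was left out. The 2 higher genes among other carbonyl and polyol enzymes became 1 with DESeq2 and 1 with library size alone, and ranged between 1 and 2 when 1 library was left out. With library size alone, siGL2 levels moved to 650 CPM for ALDH1A3 and 114.5 CPM for ALDH3A2. AKR7A2 and ALDH1B1 passed with library size alone at −0.15 each. In other settings, 3 reductase-family genes lost calls. AKR7A3 lost its call at −0.68 with DESeq2, −0.56 without siLINC00152 replicate B, −0.64 without siGL2 replicate A and −0.52 without siGL2 replicate B, beside −0.67 in the reported fit. AKR7L lost its call at −0.48 without siLINC00152 replicate C and −0.41 without siGL2 replicate C, beside −0.54. KCNAB3 lost its call at −0.38 with DESeq2 size factors, −0.39 with DESeq2, and between −0.45 and −0.23 without siLINC00152 replicate A, B or C or siGL2 replicate A, beside −0.39. The cause of these changes was not tested. At this depth ALDH1A1 had too few counts to be tested, and AKR7A3 and KCNAB3 had at most 2.02 CPM in siGL2 libraries.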

Other observations

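The AKR1B genes share their part of chromosome 7 with other tested genes, which were picked by position (GENCODE 29, within 300 kb of the cluster). BPGM, bisphosphoglycerate mutase, starts at 134646808, beyond AKR1B15 on the same strand. It rose to 81.2 ± 1.04 CPM in siLINC00152, against 43.5 ± 1.62 CPM in siGL2 libraries, log2 fold change 0.90 ± 0.05 (adjusted p = 1.35e-12, edgeR). SLC35B4, a nucleotide sugar transporter on the other side of the cluster, fell by 0.20 ± 0.05 on the log2 scale (edgeR adjusted p = 6.85e-04). CALD1, caldesmon, had a log2 fold change of 0.08 ± 0.04 and LRGUK of −0.18 ± 0.21, and neither passed the test. Beside the AKR1C cluster on chromosome 10, TUBAL3 was the other tested gene within 300 kb, with a log2 fold change of −0.17 ± 0.32 that did not pass.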
